A study of Saccharomyces cerevisiae with 9 samples.

Results

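SAL1 and 9 other genes for carriers of small molecules across the mitochondrial inner membrane were followed through 5 strains of budding yeast, Saccharomyces cerevisiae. Members were the gene spots whose name was SAL1 (systematic name YNL083W), PET9, AAC1, AAC3, MIR1, DIC1, CTP1, ODC1, ODC2 or YMC1, which gave 10 of the 6256 genes on the array. All 10 were among the 5865 genes bright enough to be tested. Each had 1 probe, printed once for PET9, DIC1 and CTP1 and on 2 spots for the other 7.

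The study put natural alleles of single genes into another strain and measured RNA against the unmodified parents on 9 arrays. In YLK804 the SAL1 of BY4724 was replaced by the RM version (SAL1-RM), and in YLK806 that of RM11-1a by the BY version (SAL1-BY), with 1 array each. YAD350 carried the MKT1 D30G replacement in BY4742 and had 1 array. The parents were RM11-1a, derived from a vineyard isolate, and BY4716, a laboratory strain, with 3 arrays each, numbered 7, 9 and 11. All 5 strains grew in synthetic medium (YNB) with 2% glucose, 100 mg/L leucine, 100 mg/L lysine and 20 mg/L uracil, and YAD350 was also given 20 mg/L histidine. SAL1-RM was thus present in YLK804 and RM11-1a, and SAL1-BY in YLK806 and BY4716. YAD350, built in a BY strain with an exchange at MKT1, is counted here as keeping SAL1-BY. The parent set against YLK804 and YAD350 was BY4716 and not BY4724 or BY4742, so that an exchanged allele and a difference between these laboratory strains cannot be told apart. The arrays show such differences. Mating type a genes were expressed in YLK804, YLK806 and RM11-1a, and mating type alpha genes in YAD350 and BY4716: the pheromone receptor gene STE2 was at 1.37 in YLK804, against -3.36 in BY4716. URA3 was at -3.47 in YLK804 and -2.89 in YAD350, against 1.38 in BY4716, and YAD350 was also low for LEU2 (-3.16, against 1.24 in BY4716) and HIS3 (-4.20, against 0.28). YLK804 and BY4716 thus differed in mating type and at URA3 besides SAL1, while YLK806 and RM11-1a expressed the same mating type genes and were both low for URA3 and LEU2.

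On every array the strain's RNA was in the Cy5 channel and a common reference in the Cy3 channel. The reference pooled RNA of both parents, each grown on glucose and on ethanol. A level here is the log2 ratio of strain to reference for a gene's own probe, so that 0 means as much as in the mixture, and levels of different genes cannot be ranked against each other. The labels of the 3 exchange arrays name the strain in both channels. The strain was read as Cy5, and over all genes the ratios of YLK804 and YAD350 then correlated with BY4716 at r = 0.878 and 0.806 and those of YLK806 with RM11-1a at r = 0.886. A difference was called at an adjusted p under 0.05 in limma, over all genes tested. The strains with 1 array were assumed to vary like the parental arrays. Nothing in the labels tells whether the 3 arrays of a parent stand for 3 cultures, and p-values then reflect only the spread between these samples, which may be technical.

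The YLK804 and YLK806 arrays were scanned on 1 day, apart from the parents, and the YAD350 array on another. The scanner software was version 9.1.3.1 for YLK804 and YLK806 and 8.5.1.1 for the other 7 arrays. It marked 5 and 8 spots as outliers on the YLK804 and YLK806 arrays, against 54 to 140 on the others. The Cy3 channel, which held the same kind of mixture on every array, was tested on its own in the same way. It differed between RM11-1a and BY4716 for 0.682% of genes, but between YLK804 and BY4716 for 56.8%, between YLK806 and RM11-1a for 64.5% and between YAD350 and BY4716 for 40.7%. Whether the mixture, its labelling, the hybridisation or the scan differed was not tested, and neither was the part of the software version. The change of each channel is therefore given beside the called differences of the 10 genes in the exchange strains, and the part of the Cy3 change in the results was not tested.

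Carriers of this family exchange nucleotides, phosphate and organic acids between cytosol and matrix. The ADP/ATP carriers PET9 (also called AAC2), AAC1 and AAC3 bring ADP in and take ATP out, and MIR1 brings in the phosphate that ATP synthase joins to ADP. SAL1 encodes a calcium-dependent carrier of ATP-Mg and phosphate, and yeast cells need either SAL1 or PET9 to live. Laboratory strains related to S288C are known to carry a frameshifted allele of SAL1, while other strains carry an intact one. On glucose yeast cells mostly ferment, and many genes of respiration are then transcribed at a low level.

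**Figure D1:**
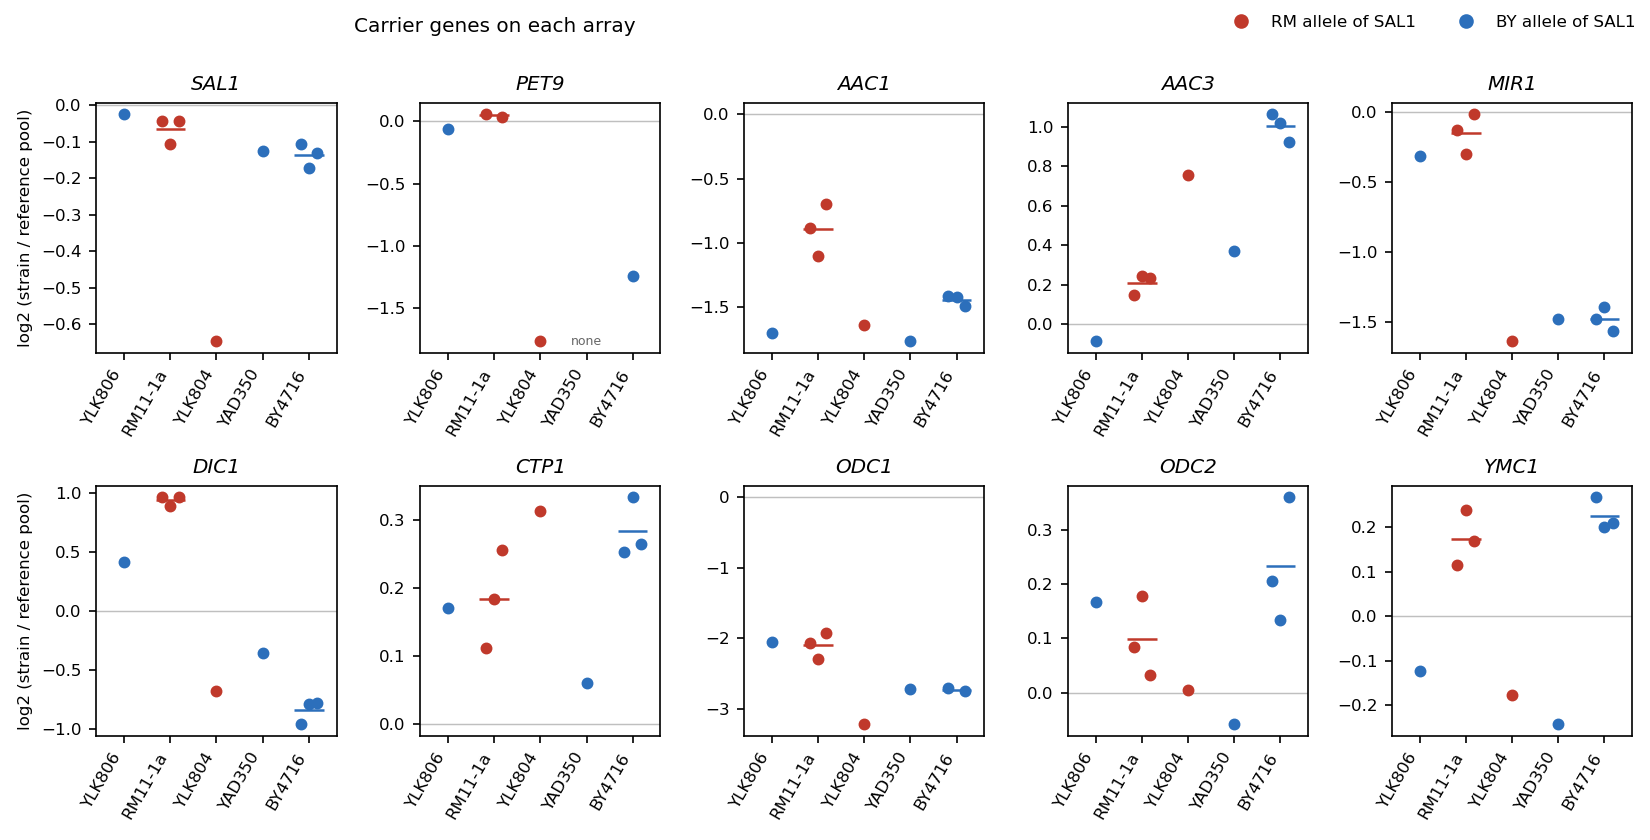
Log2 ratio of strain to reference (y axis, a scale of its own for each gene) on each array, by strain (x axis), for the 10 genes. Each point is 1 array, lines are means of strains with more than 1 array, and red and blue mark the RM and BY allele of SAL1. The lowest SAL1 point is YLK804 (-0.65), and the remaining 8 range up from -0.17 to -0.025. PET9, MIR1, DIC1 and ODC1 separated the vineyard strains RM11-1a and YLK806 from the laboratory strains with higher ratios. AAC3 separated them with lower ratios. "None" marks a strain whose single spot was left out as an outlier.

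SAL1 had its lowest ratio in YLK804, the laboratory strain carrying the vineyard allele, at -0.65. It was -0.025 in YLK806, -0.13 in YAD350, -0.05, -0.11 and -0.05 in RM11-1a arrays 11, 7 and 9, and -0.11, -0.17 and -0.13 in BY4716 arrays 11, 7 and 9. From low to high, YLK804 stood apart, and the other 8 arrays spanned only 0.15. The values for both SAL1 spots differed by at most 0.08 on any array and by 0.04 on the YLK804 array.

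SAL1 in YLK804 was below BY4716 by -0.51 ± 0.05 (log2 difference ± SE of the fit; 95% interval -0.63 to -0.39; adjusted p = 0.0020), or 0.703 times the BY4716 level. The call held without any 1 of the 6 parental arrays. In signal of each channel, SAL1 in YLK804 was at 7.53 in Cy5, against 7.79, 7.68 and 7.86 on the BY4716 arrays. In Cy3 it was at 8.18 on the YLK804 array, against 7.90, 7.85 and 7.995. The Cy5 change was thus -0.25 (adjusted p = 0.065 in limma on that channel alone) and the Cy3 change 0.26 (adjusted p = 0.0043). A lower strain signal and a higher reference signal made up about equal parts of the difference in ratio.

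The reverse exchange gave no call for SAL1. YLK806 differed from RM11-1a by 0.04 ± 0.05 (95% interval -0.08 to 0.16; adjusted p = 0.60). Both channels of SAL1 were brighter on that array than on the RM11-1a arrays, by 0.41 in Cy5 and by 0.37 in Cy3. Between the parents, where the allele also differs, SAL1 differed by 0.07 ± 0.04 (95% interval -0.01 to 0.16; adjusted p = 0.12), although the lowest RM11-1a array (-0.107) lay just above the highest BY4716 array (-0.108). YAD350 differed from BY4716 by 0.01 ± 0.05 (adjusted p = 0.89). The SAL1 ratio was therefore not ordered by its allele over the strains: the RM allele was in the strain with the lowest ratio and in the parent with the higher one. SAL1 was read from 1 probe, and whether that probe overlaps a sequence difference between the alleles could not be checked.

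The 3 genes whose ratios followed SAL1 most closely over the 9 arrays were FRE7 (r = 0.940), YLR311C (r = 0.939) and LEE1 (r = 0.925), of 5830 genes measured on all 9 arrays. These 3 were also the whole of the genes with r over 0.9. Each had its lowest ratio on the YLK804 array, as SAL1 had, so this is a description of 9 points of which 1 stands apart, each a ratio to the reference on its own array.

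The genes on either side of SAL1 on chromosome XIV were set beside it, since an exchange can carry neighbouring sequence. In gene order they are MKT1, END3, SAL1, PMS1, SWS2, EOS1 and TPM1. In YLK804 against BY4716, 2 of these 6 neighbours were called, both lower: EOS1 by -0.40 (adjusted p = 0.0057), and PMS1, a mismatch repair gene, by -0.31 (adjusted p = 0.041). MKT1 differed by 0.17 (adjusted p = 0.12) and END3, an endocytosis gene next to SAL1, by 0.14 (adjusted p = 0.32). SWS2 and TPM1, which encodes tropomyosin, each differed by 0.03. In this comparison 21.1% of all genes were called. In YLK806 against RM11-1a, EOS1 was again lower (-0.43, adjusted p = 0.0056) and MKT1 higher (0.28, adjusted p = 0.030). EOS1 was thus called lower in both strains, but its channels moved differently, with Cy5 at 0.09 and Cy3 at 0.49 in YLK804, and Cy5 at -0.91 and Cy3 at -0.49 in YLK806. The median over the 6 neighbours was 0.03 in YLK804, where that over all genes was -0.01. YAD350, counted as keeping SAL1-BY, also had lower ratios than BY4716 for EOS1 (-0.32), PMS1 (-0.37) and TPM1 (-0.49). There END3 (0.29) and SWS2 (0.58) were higher, and MKT1 differed by 0.02. Lower EOS1 and PMS1 were thus not particular to the strains with a SAL1 exchange.

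**Figure D2:**
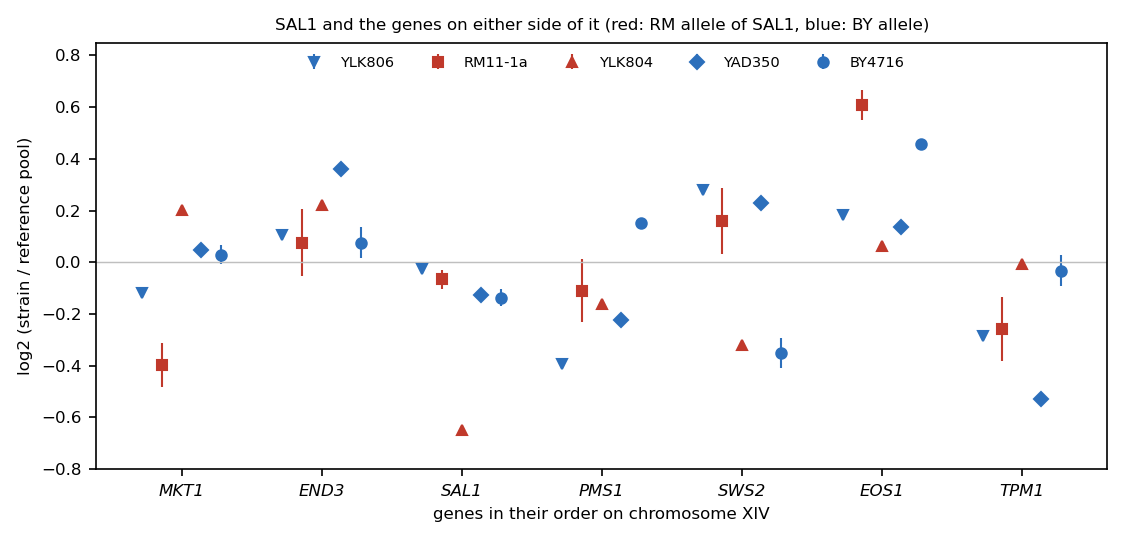
Log2 ratio of strain to reference (y axis) of SAL1 and the 6 genes beside it, in their order on chromosome XIV (x axis, not to scale). Points are means, with SD bars for RM11-1a and BY4716 (n = 3 each) and single arrays otherwise, and red and blue mark the RM and BY allele of SAL1. In YLK804 SAL1 lay at -0.65, below every other strain, while END3 beside it lay at 0.22, within the range of the other strains.

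PET9 encodes the main ADP/ATP carrier. Its single spot was marked as an outlier by the scanner software on RM11-1a array 9, BY4716 arrays 9 and 11 and the YAD350 array, and those values were left out. The remaining ratios were -1.77 in YLK804, -0.06 in YLK806, 0.06 and 0.04 in RM11-1a arrays 11 and 7, and -1.24 in BY4716 array 7. PET9 was higher in RM11-1a than in BY4716 by 1.29 ± 0.06 (adjusted p = 8.3e-05), or 2.44-fold. With the outlier spots kept, the RM11-1a arrays were at 0.06, 0.04 and 0.17 and the BY4716 arrays at -1.27, -1.24 and -1.52 (11, 7 and 9), YAD350 was at -1.59, and the parents differed by 1.43 (adjusted p = 4.7e-06). Vineyard strains lay near 0 and laboratory strains below -1.2, with no overlap.

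PET9 was lower in YLK804 than in BY4716 by -0.53 ± 0.07 (adjusted p = 0.014), a value that rests on 1 BY4716 array. With the outlier spots kept it was -0.43 (adjusted p = 0.034). The strain channel was not lower: Cy5 changed by 0.27 (adjusted p = 0.097) and Cy3 by 0.80 (adjusted p = 0.00022). In YLK806 PET9 differed from RM11-1a by -0.11 ± 0.06 (adjusted p = 0.25), with Cy5 higher by 0.62 and Cy3 by 0.73.

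AAC1, a minor ADP/ATP carrier of aerobic cells, was higher in RM11-1a than in every other strain. It was at -1.70 in YLK806, -1.64 in YLK804, -1.76 in YAD350, -0.89, -1.10 and -0.70 in RM11-1a arrays 11, 7 and 9, and -1.41, -1.42 and -1.49 in BY4716 arrays 11, 7 and 9. The parental arrays did not overlap, and RM11-1a exceeded BY4716 by 0.55 ± 0.09 (adjusted p = 0.0016). YLK806, with the BY allele in the same background, was below RM11-1a by -0.81 ± 0.13 (adjusted p = 0.0087). Most of that lay in the strain channel, with Cy5 at -0.58 and Cy3 at 0.23. YLK804 differed from BY4716 by -0.20 ± 0.13 (adjusted p = 0.31). The RM11-1a arrays spread more for AAC1 (SD 0.20, n = 3) than the BY4716 arrays (SD 0.04, n = 3), and with only the YLK806 and RM11-1a arrays in the fit the YLK806 difference had an adjusted p of 0.060.

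AAC3, the ADP/ATP carrier gene used when oxygen is scarce, ran the other way between the parents. It was at -0.09 in YLK806, 0.75 in YLK804, 0.37 in YAD350, 0.15, 0.24 and 0.23 in RM11-1a arrays 11, 7 and 9, and 1.06, 1.02 and 0.92 in BY4716 arrays 11, 7 and 9. RM11-1a was lower than BY4716 by -0.79 ± 0.05 (adjusted p = 8.1e-06), and each exchange strain lay below its parent. The difference was -0.25 ± 0.07 for YLK804 (adjusted p = 0.041), -0.29 ± 0.07 for YLK806 (adjusted p = 0.025) and -0.63 ± 0.07 for YAD350 (adjusted p = 0.00062). For YLK804 and YAD350 nearly all of it lay in Cy5 (-0.24 and -0.61, with Cy3 at 0.008 and 0.027), and for YLK806 nearly all in Cy3 (0.31, with Cy5 at 0.015).

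The AAC3 probe was dim, and the offset of 50 added to the signals draws ratios of dim probes toward 0. With the ratios as deposited, the difference was -1.48 between the parents, -0.73 for YLK804, -0.74 for YLK806 and -1.18 for YAD350, all still called. The YLK804 call did not hold with scaling between arrays, with the spread modelled by signal or with scan day as a random block. The YLK804 call was lost without BY4716 array 7 (adjusted p = 0.11) or 11 (adjusted p = 0.10), and the YLK804 and YLK806 calls under median centring (adjusted p = 0.082 and 0.080). The YLK806 call was also lost with only the YLK806 and RM11-1a arrays in the fit (adjusted p = 0.076).

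MIR1, the phosphate carrier, differed between the backgrounds and showed no call by SAL1 allele. It was at -0.32 in YLK806, -1.64 in YLK804, -1.48 in YAD350, -0.13, -0.30 and -0.02 in RM11-1a arrays 11, 7 and 9, and -1.48, -1.40 and -1.56 in BY4716 arrays 11, 7 and 9. The 2 backgrounds did not overlap on any array. RM11-1a exceeded BY4716 by 1.33 ± 0.08 (adjusted p = 6.4e-06), or 2.51-fold. YLK804 differed from BY4716 by -0.16 ± 0.11 (adjusted p = 0.33), YLK806 from RM11-1a by -0.17 ± 0.11 (adjusted p = 0.30) and YAD350 from BY4716 by -0.005 ± 0.11 (adjusted p = 0.97).

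DIC1, the dicarboxylate carrier, which exchanges malate and succinate for phosphate, showed the largest parental difference among the 10 genes. It was at 0.42 in YLK806, -0.67 in YLK804, -0.36 in YAD350, 0.96, 0.89 and 0.96 in RM11-1a arrays 11, 7 and 9, and -0.96, -0.79 and -0.78 in BY4716 arrays 11, 7 and 9. RM11-1a exceeded BY4716 by 1.78 ± 0.06 (adjusted p = 2.3e-07), or 3.43-fold. In each background the strain with SAL1-RM had a higher ratio than the strain with SAL1-BY, with a call in the vineyard background alone. YLK806 was below RM11-1a by -0.52 ± 0.08 (adjusted p = 0.0071), with Cy5 at -0.64 and Cy3 at -0.12. YLK804 was above BY4716 by 0.17 ± 0.08 (95% interval -0.02 to 0.35), which was not called (adjusted p = 0.17). YAD350, which has the BY allele, was also above BY4716, by 0.48 ± 0.08 (adjusted p = 0.0026), with Cy5 at 0.71 and Cy3 at 0.23.

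The genes whose ratios were most like those of DIC1 over the 9 arrays were GPD1, for a glycerol phosphate dehydrogenase (r = 0.995), TSA1, for a peroxiredoxin (r = 0.993), and YIP3 (r = 0.993). For DIC1 604 genes had r over 0.9, against 3 for SAL1. The 2 backgrounds form separate clusters for DIC1, so these r values mainly restate that a gene differed between backgrounds.

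The 2 carriers of oxoglutarate and related acids behaved differently from each other. ODC1 was at -2.05 in YLK806, -3.22 in YLK804, -2.72 in YAD350, -2.07, -2.29 and -1.92 in RM11-1a arrays 11, 7 and 9, and -2.71 and -2.75 in BY4716 arrays 11 and 9. BY4716 array 7 was left out as an outlier. RM11-1a exceeded BY4716 by 0.63 ± 0.10 (adjusted p = 0.0019). YLK804 lay lowest, at -0.49 ± 0.14 from BY4716 (adjusted p = 0.052), with Cy5 at 0.01 and Cy3 at 0.50. The same difference was called with the outlier spots kept (-0.49, adjusted p = 0.031). YLK806 differed from RM11-1a by 0.05 ± 0.13 (adjusted p = 0.82), with both channels brighter (Cy5 by 0.61, Cy3 by 0.57).

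ODC2 was at 0.17 in YLK806, 0.01 in YLK804, -0.06 in YAD350, 0.09, 0.18 and 0.03 in RM11-1a arrays 11, 7 and 9, and 0.21, 0.13 and 0.36 in BY4716 arrays 11, 7 and 9. The parents overlapped and differed by -0.13 ± 0.07 (adjusted p = 0.11). That was called lower under median centring (-0.22, adjusted p = 0.022). With scan day as a block the difference was -0.33, a value that rests on array 9 of each parent alone. YAD350 was lower than BY4716 by -0.29 ± 0.09 (adjusted p = 0.036), a call lost without BY4716 array 9 (-0.23, adjusted p = 0.053) or 11 (adjusted p = 0.067). Cy5 changed by -0.19 and Cy3 by 0.10. On the YLK806 array both channels of ODC2 were dimmer than on the RM11-1a arrays, Cy5 by -1.41 and Cy3 by -1.48, while the ratio differed by 0.07 (adjusted p = 0.62).

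CTP1, the citrate carrier, stayed within 0.27 over the 9 arrays. Its probe was also dim, and the ratios as deposited spanned 0.49. It was at 0.17 in YLK806, 0.31 in YLK804, 0.06 in YAD350, 0.11, 0.18 and 0.26 in RM11-1a arrays 11, 7 and 9, and 0.25, 0.33 and 0.26 in BY4716 arrays 11, 7 and 9. The parents overlapped (difference -0.10 ± 0.05, adjusted p = 0.10). Its one call was YAD350 below BY4716, by -0.22 ± 0.07 (adjusted p = 0.028), where Cy5 changed by 0.10 and Cy3 by 0.32. That call was lost without any 1 of the BY4716 arrays (adjusted p = 0.050 to 0.074) and under median centring (-0.12, adjusted p = 0.32). With the ratios as deposited the difference was -0.41 for YAD350 (adjusted p = 0.031) and -0.22 between the parents (adjusted p = 0.065).

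YMC1, another inner membrane carrier gene, had about the same level in both parents and was lower in all 3 exchange strains. It was at -0.12 in YLK806, -0.18 in YLK804, -0.24 in YAD350, 0.12, 0.24 and 0.17 in RM11-1a arrays 11, 7 and 9, and 0.27, 0.20 and 0.21 in BY4716 arrays 11, 7 and 9. The exchange arrays lay below all 6 parental arrays. The parents differed by -0.05 ± 0.04 (adjusted p = 0.33). YLK804 was below BY4716 by -0.40 ± 0.06 (adjusted p = 0.0065), YLK806 below RM11-1a by -0.30 ± 0.06 (adjusted p = 0.017) and YAD350 below BY4716 by -0.47 ± 0.06 (adjusted p = 0.0012). The channels differed between these 3 arrays. In YAD350 Cy5 changed by -0.45 and Cy3 by 0.02, whereas in YLK804 Cy5 changed by -0.07 and Cy3 by 0.34, and in YLK806 Cy5 changed by 0.13 and Cy3 by 0.42. With only the YLK806 and RM11-1a arrays in the fit the YLK806 call was lost (adjusted p = 0.080).

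**Figure D3:**
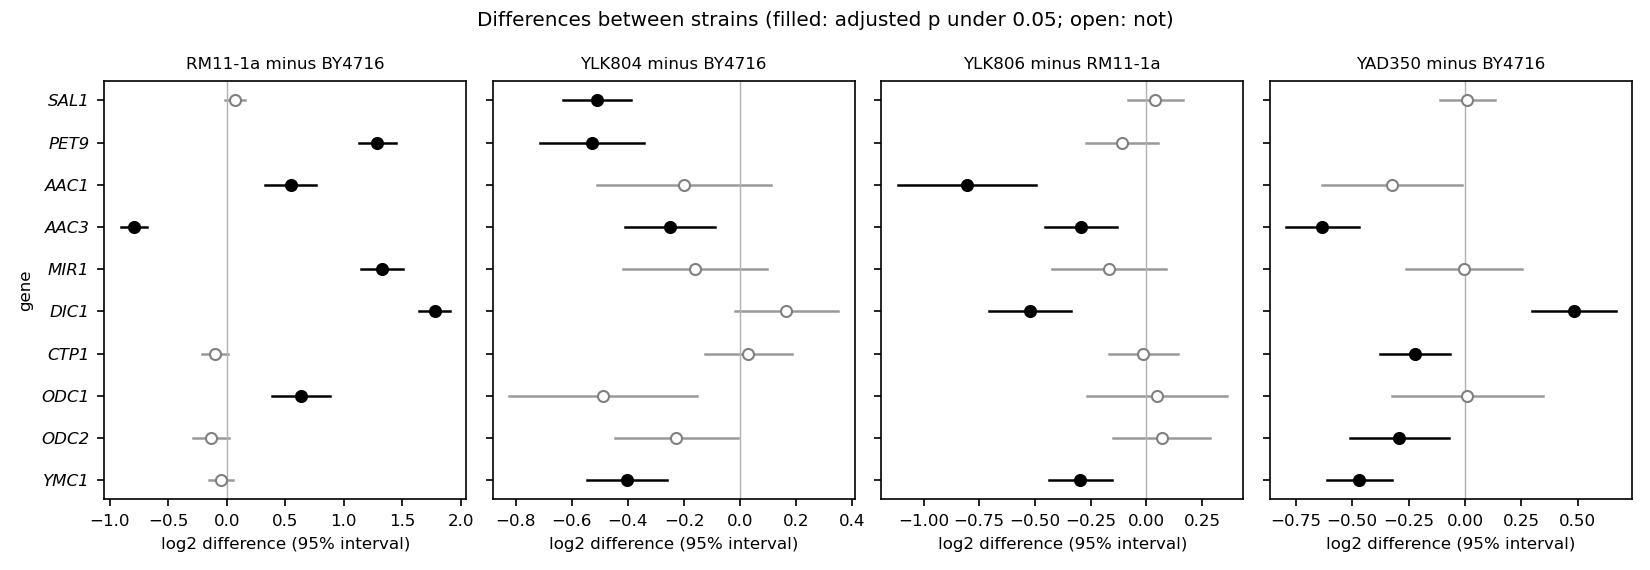
Log2 difference between strains (x axis, a scale of its own for each panel) for the 10 genes (y axis) in 4 comparisons, with 95% intervals from the limma fit. Filled points had an adjusted p under 0.05 over all genes tested and open points did not; PET9 has no value in YAD350. RM11-1a minus BY4716 spans -0.79 for AAC3 to 1.78 for DIC1, while no difference of YLK804 or YLK806 from its parent exceeds 0.81 in size.

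Over the 10 genes, 5 were higher in RM11-1a than in BY4716 (PET9, AAC1, MIR1, DIC1, ODC1), 1 was lower (AAC3), and 4 were not called. Calls covered 63.0% of all genes tested in this comparison, so 6 of 10 is near the background. The ratios of RM11-1a and BY4716 arrays did not overlap for 7 of the 10, against 70.2% of all genes. The median of the 10 was 0.31, beside 0.01 over all genes. On the 1 day that held arrays of both parents, RM11-1a array 9 minus BY4716 array 9 gave 1.74 for DIC1, 1.55 for MIR1, 0.79 for AAC1, 0.83 for ODC1 and -0.69 for AAC3, with the signs of the pooled values. It gave 0.09 for SAL1.

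In YLK804 4 of the 10 genes were lower than in BY4716 (SAL1, PET9, AAC3, YMC1) and none was higher, where 21.1% of all genes were called. In YLK806 4 were lower than in RM11-1a (AAC1, AAC3, DIC1, YMC1) and none was higher, where 22.5% of all genes were called. In YAD350 4 of 9 were lower than in BY4716 (AAC3, CTP1, ODC2, YMC1) and DIC1 was higher, where 47.1% were called. Each of these strains had 1 array, so these counts compare that array with the parent's arrays.

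Tested one channel at a time, the counts shifted. Cy5 alone gave 5 higher and 2 lower of the 10 between RM11-1a and BY4716 (57.8% of all genes called), 1 lower in YLK804 (27.0%), 3 higher and 3 lower in YLK806 (35.9%) and, of 9, 1 higher and 2 lower in YAD350 (31.2%). Cy3 alone gave no call among the 10 between RM11-1a and BY4716. It gave 6 of 10 higher in YLK804 (56.8% of all genes called), 7 higher and 1 lower in YLK806 (64.5%), and 4 of 9 higher in YAD350 (40.7%). Lower ratios of these genes in YLK804 and YLK806 thus coincided with a brighter reference channel for SAL1, PET9 and YMC1 in YLK804 and for AAC1, AAC3 and YMC1 in YLK806, and not for DIC1 in YLK806 or AAC3 in YLK804.

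**Figure D4:**
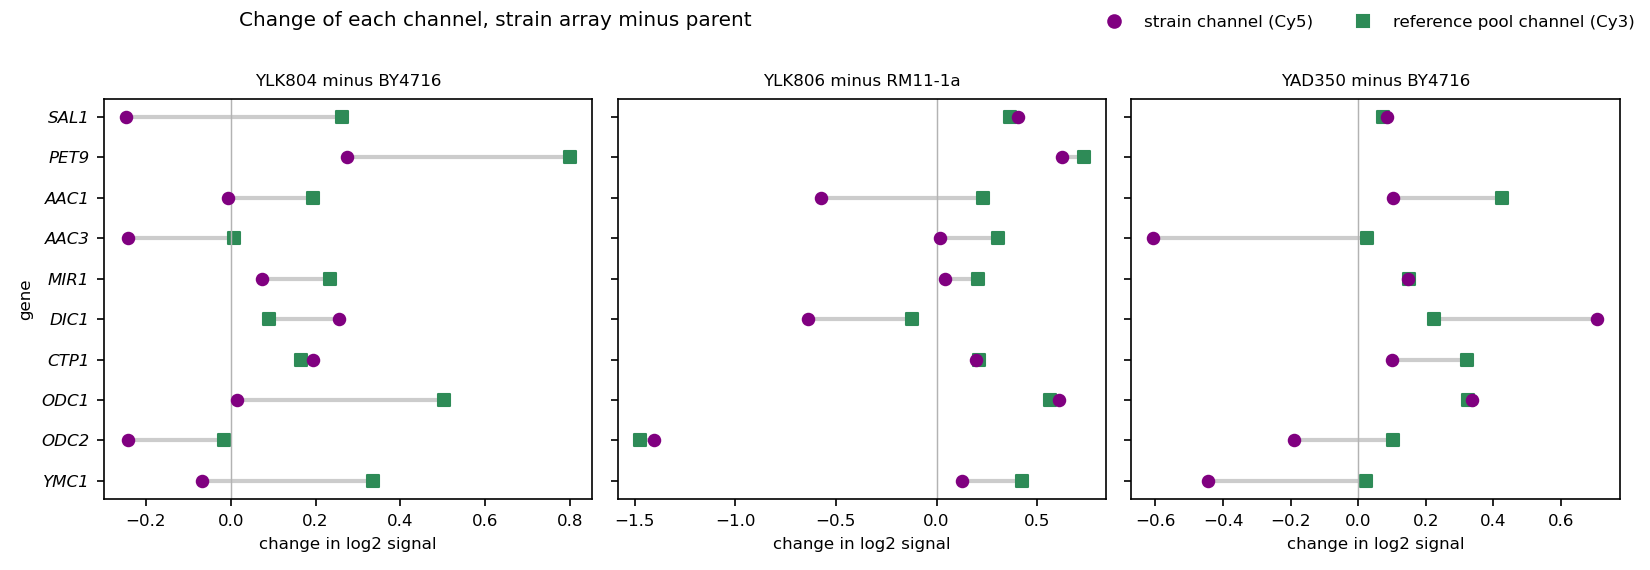
Change of log2 signal (x axis, a scale of its own for each panel) in the strain channel (Cy5, circles) and the reference channel (Cy3, squares) for the 10 genes (y axis), array of the exchange strain minus mean of its parent. The log2 difference of the ratio is circle minus square. For PET9, YMC1 and ODC1 in YLK804 the square lies at 0.34 to 0.80 while the circle lies between -0.07 and 0.27; for DIC1 in YLK806 the circle moved more (-0.64) than the square (-0.12).

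The SAL1 alleles were then compared across both backgrounds, as the mean of YLK804 minus BY4716 and RM11-1a minus YLK806. A shift that the YLK804 and YLK806 arrays share cancels in this mean. In it 2 of the 10 genes were called, where 0.853% of all genes (50 of 5863) were. SAL1 was lower with SAL1-RM, by -0.28 ± 0.04 (95% interval -0.36 to -0.19; adjusted p = 0.019), with Cy5 at -0.33 and Cy3 at -0.05. DIC1 was higher with SAL1-RM, by 0.34 ± 0.06 (95% interval 0.21 to 0.47; adjusted p = 0.047), with Cy5 at 0.45 and Cy3 at 0.11.

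Both calls depended on single parental arrays. SAL1 kept its direction but lost the call without BY4716 array 7 (-0.28, adjusted p = 0.059), 9 (-0.27, adjusted p = 0.080) or 11 (-0.27, adjusted p = 0.073). DIC1 lost it without BY4716 array 7 or 9 or RM11-1a array 9 or 11 (adjusted p = 0.073 to 0.12), and with the deposited ratios (0.35, adjusted p = 0.071). Within scan days, where BY4716 array 9 is set against RM11-1a array 9 and YLK804 against YLK806, the same means were -0.27 for SAL1 and 0.33 for DIC1.

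The allele difference had one sign in both backgrounds for 5 of the 10 genes: SAL1, DIC1, CTP1, ODC1 and ODC2. For DIC1 it was 0.17 in the laboratory background and 0.52 in the vineyard background. For SAL1 it was -0.51 in the laboratory background and -0.04 in the vineyard background, so the mean for SAL1 came almost wholly from YLK804. AAC1 differed by -0.20 in the laboratory background and by 0.81 in the vineyard background, with a mean of 0.30 (adjusted p = 0.29). The means of MIR1 (0.004 ± 0.08) and AAC3 (0.02 ± 0.05) lay close to 0, with 95% intervals of -0.18 to 0.19 and -0.09 to 0.14. The difference between the 2 backgrounds was itself called for 6 of the 10 genes, where 38.6% of all genes were called. A shift shared by the YLK804 and YLK806 arrays adds to that difference, and an effect of the background cannot be told apart from it.

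**Figure D5:**
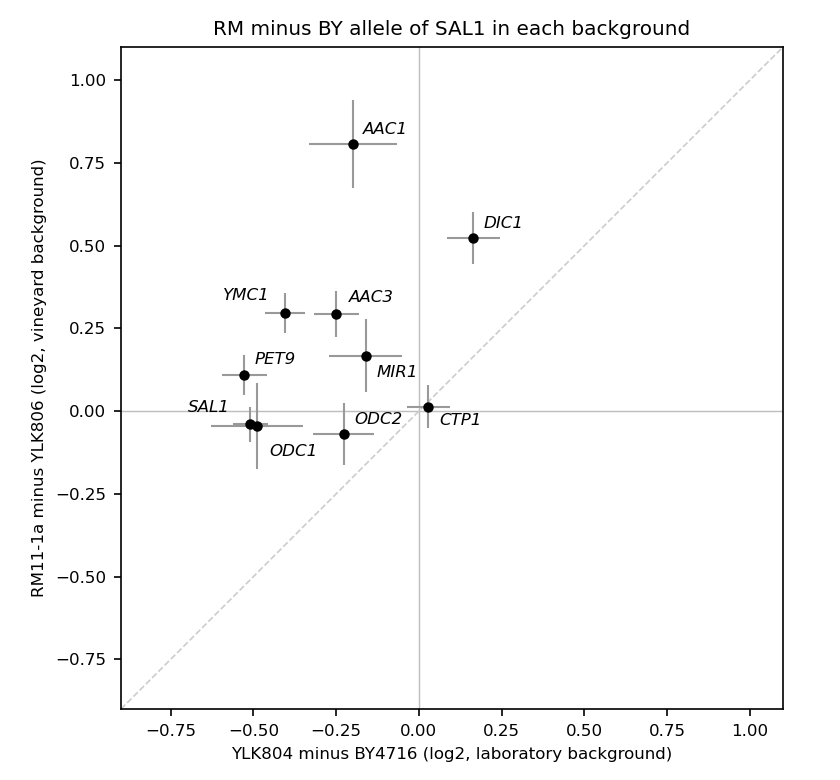
SAL1-RM minus SAL1-BY for the 10 genes, in the laboratory background (x axis, YLK804 minus BY4716) and in the vineyard background (y axis, RM11-1a minus YLK806), as log2 differences with SE bars. The dashed line marks equal differences. DIC1 lies above 0 on both axes (0.17 and 0.52), and 9 of the 10 genes lie above the line. PET9, SAL1 and ODC1 lie lowest on the x axis (-0.53, -0.51 and -0.49), at 0.11, -0.04 and -0.05 on the y axis.

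Genes that work with these carriers were counted in the same comparisons, where RM11-1a and BY4716 differed for 63.0% of all genes. Of 16 genes for ATP synthase subunits and its inhibitors, all 16 were higher in RM11-1a than in BY4716, with a median of 1.08. Examples were INH1, an inhibitor of the enzyme (1.69, adjusted p = 2.3e-07), ATP1 (1.43, adjusted p = 7.0e-06) and ATP5 (1.41, adjusted p = 2.7e-07). Of 25 other genes of the carrier family 17 were higher and 3 lower, with a median of 0.32. They included OAC1, an oxaloacetate carrier (1.82, adjusted p = 1.7e-07), PET8, for the S-adenosylmethionine carrier (0.73, adjusted p = 3.7e-05), and PIC2, a second phosphate carrier (0.56, adjusted p = 0.00045). Of 5 genes for outer membrane porins and pyruvate carriers 4 were higher, such as POR1 (0.74, adjusted p = 3.0e-05), and POR2 was lower (-0.59, adjusted p = 9.7e-05).

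By SAL1 allele, averaged over both backgrounds, limma called none of these 16, 25 and 5 genes, and none of the 6 genes beside SAL1. Their medians were 0.01, -0.01, -0.02 and 0.001, beside 0.003 over all genes. In YLK804 against BY4716, 3 ATP synthase genes were higher and 1 lower, and 2 other carriers were higher and 5 lower, where 21.1% of all genes were called. In YLK806 against RM11-1a, 5 ATP synthase genes were higher and 2 lower, and 4 other carriers were higher and 4 lower, where 22.5% were called. ATP2 was higher in both (0.71 and 0.70) with Cy3 lower by -1.002 and -1.17, and the carnitine carrier gene CRC1 was lower in both (-0.96 and -0.97) with Cy3 higher by 1.09 and 1.13. In YAD350, counted as keeping SAL1-BY, ATP2 was also above BY4716 (0.83), with Cy3 lower by -0.815. CRC1 was at -5.10 in YAD350, against -4.67 in BY4716. The YAD350 medians were 0.33 for the ATP synthase genes and 0.20 for the other carriers, beside 0.02 over all genes.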

How the data were processed

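RNA of 5 strains was measured on 9 Agilent yeast arrays with 2 channels. The deposited scanner files hold spot intensity per channel, extracted by Agilent software (Feature Extraction, version 9.1.3.1 on the YLK804 and YLK806 arrays, 8.5.1.1 on the other 7), per the file headers. They also hold a log10 ratio of Cy5 over Cy3 after background subtraction and dye normalization, per the file headers, and the series table holds the authors' log2 ratios, equal to these within 5e-04.

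Intensities were corrected with normexp (offset 50) and loess within arrays in limma 3.58.1 (R 4.3.3). Control spots were left out, as were the 5 to 140 spots per array marked as outliers, and spots of a gene were averaged. Genes were tested if well above background on 3 or more arrays, in whichever channel. The 5 strains were groups of a single lmFit and eBayes fit over the 9 arrays (4 residual degrees of freedom), with Benjamini-Hochberg adjustment. Single channels were taken after loess and Aquantile. The fit was tested on simulated data.

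Median signals lay between 237 and 424 in Cy5 and between 179 and 272 in Cy3, over backgrounds of 21 to 32; precision is limited by how few arrays there are. In Cy5 89.5% to 93.9% of genes stood well above background, and no spot of the 10 genes was saturated. The genes and lists were chosen with earlier results of these data known. All 10 genes are named, together with the 3 most alike genes for SAL1 and for the gene of largest spread measured on all arrays. The 6 genes beside SAL1 are also named, and up to 3 called genes of each list with the log2 differences of largest size. ATP2 and CRC1 are among these. Gene order on chromosome XIV came from RefSeq (R64). Slide could not be used as a random block.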

Additional observations from a re-analysis of the deposited data

Results flagged for a closer look

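For 6 of the 10 genes the difference between the SAL1-RM and the SAL1-BY strain was called unlike in the laboratory and the vineyard background. This was tested as a difference of differences in limma: YLK804 minus BY4716, less RM11-1a minus YLK806. For SAL1 it was -0.47 (adjusted p = 0.0030), with 0.16 in Cy5 alone and 0.63 in Cy3 alone. For PET9 it was -0.64 (adjusted p = 0.0084), with 0.90 in Cy5 and 1.53 in Cy3. For AAC1 it was -1.01 (adjusted p = 0.0058), with -0.58 in Cy5 and 0.43 in Cy3. For AAC3 it was -0.54 (adjusted p = 0.0050), with -0.23 in Cy5 and 0.32 in Cy3. For DIC1 it was -0.36 (adjusted p = 0.040), with -0.39 in Cy5 and -0.03 in Cy3. The DIC1 call was lost with an offset of 0 (adjusted p = 0.068), with either deposited ratio (adjusted p = 0.059), with scan day as a random block (adjusted p = 0.079) and without BY4716 array 7 or 9 or RM11-1a array 9 or 11 (adjusted p = 0.057 to 0.081). For YMC1 it was -0.70 (adjusted p = 0.0013), with 0.06 in Cy5 and 0.76 in Cy3.

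A shift shared by the YLK804 and YLK806 arrays, which were scanned on 1 day, adds to this difference, so that such a shift and an effect of the background cannot be told apart. YLK804 and BY4716 also differed in mating type and at URA3, which cannot be told apart from the allele in the laboratory background. The same test called 38.6% of all genes, and in Cy3 alone 71.5%.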

How the results depend on the processing

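Calls were recomputed under other background corrections, normalizations, filters, ratios, spread models and scan-day terms and without each parental array. The number of the 10 genes called was 6 between RM11-1a and BY4716, 4 in YLK804, 4 in YLK806, 5 in YAD350, 2 for the mean allele difference and 6 for its difference between backgrounds. Cy3 alone gave 0 between the parents and 8 in YLK806. Cy5 alone gave 1 in YLK804 and 3 in YAD350. With scan day as a random block, which used genes measured on all 9 arrays and so 8 of the 10, YLK804 had 2, and with only the arrays compared YLK806 had 1. The mean allele difference had 1 with an offset of 0, with scaling between arrays, with either deposited ratio and with no or a stricter filter. With scan day as a block it rests on single arrays, YLK804, YLK806 and array 9 of each parent. It was then 0.43 for AAC1 and -0.245 for ODC2. Leaving out 1 parental array gave 5 to 7 between the parents, 2 to 5 in YLK804, 4 in YLK806, 3 to 6 in YAD350, 0 to 3 for the mean allele difference and 4 to 8 for the difference between backgrounds. The lowest counts came without BY4716 array 7 in YLK804, 9 or 11 in YAD350 and 7 or 9 for the mean allele difference. Without BY4716 array 7 PET9 had no BY4716 value, so only 9 genes could be tested, and PET9 is part of the fall in YLK804 and between the parents.

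Over all genes the number called moved too: in YLK804 it was 1240, and 629 under median centring, 1965 with only the arrays compared and 590 without BY4716 array 7; in YLK806 it was 1320, and 144 with only the arrays compared and 856 without BY4716 array 11. For the mean allele difference it was 50, with 28 under the stricter filter and without BY4716 array 9.

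Among values called in the ratio or under the alternative, signs turned only in the single channels. The ratio is Cy5 over Cy3, so a Cy3 change of opposite sign adds to the difference in ratio and does not reverse it. In Cy3 alone the values were, between the parents, -0.062 for PET9 and -0.091 for ODC1; in YLK804 0.26 for SAL1, 0.80 for PET9, 0.19 for AAC1, 0.008 for AAC3, 0.50 for ODC1 and 0.34 for YMC1; in YLK806 0.73 for PET9, 0.23 for AAC1, 0.31 for AAC3, 0.21 for CTP1, -1.48 for ODC2 and 0.42 for YMC1. In YAD350 they were 0.43 for AAC1, 0.027 for AAC3, 0.32 for CTP1, 0.10 for ODC2 and 0.024 for YMC1, and for the mean allele difference -0.15 for AAC3 and 0.73 for ODC2. For the difference between backgrounds they were 0.63 for SAL1, 1.53 for PET9, 0.43 for AAC1, 0.32 for AAC3, 1.07 for ODC1 and 0.76 for YMC1. In Cy5 alone PET9 turned to 0.27 in YLK804, PET9 to 0.62, AAC3 to 0.015, ODC2 to -1.41 and YMC1 to 0.13 in YLK806, CTP1 to 0.10 in YAD350, ODC2 to 0.58 in the mean, and SAL1 to 0.16, PET9 to 0.90 and YMC1 to 0.06 in the difference between backgrounds. The cause was not tested.

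No pairing of the parental arrays by the numbers 7, 9 and 11 was seen. Deviations of same-numbered arrays correlated at -0.21, 0.14 and -0.18, and those of other pairs at -0.23 to 0.33. So few arrays cannot settle whether the numbers mark pairs. With the replicate block 6 of the 10 were called between the parents, as without it. For the strains with 1 array the 95% intervals reached 0.12 to either side for SAL1 and up to 0.33 for ODC1, so smaller differences could not be told from 0. These intervals are not adjusted over all genes, and larger differences also went uncalled, such as ODC1 in YLK804 (-0.49).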

Other observations

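On the YLK806 array 122 of 5863 genes were lower than the RM11-1a arrays by more than 1 on the log2 scale in both channels at once, against 19 of 5865 on the YLK804 array set against BY4716 and 1 of 5850 on the YAD350 array. ODC2 was the only one of the 10 carrier genes among them (-1.41 in Cy5, -1.48 in Cy3). TPM1, beside SAL1 on chromosome XIV, was lower by -2.00 in Cy5 and -1.97 in Cy3, and the porin gene POR1 by -3.15 and -3.50. The ratios of these 3 genes differed from RM11-1a by 0.07 for ODC2, -0.03 for TPM1 and 0.36 for POR1.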
